A study of Homo sapiens with 6 samples.

Results

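Transcripts of the nuclear-encoded respiratory chain were followed in the human prostate cancer line PC-3 given trans-Gnetin H (TGH) or its solvent. The members are all rows of the deposited expression table whose symbol begins with NDUF, UQCR, COX4 to COX8 or ATP5, together with SDHA, SDHB, SDHC, SDHD and CYC1. That rule found 99 of the 18780 listed symbols: 37 of complex I, 4 of complex II, 10 of complex III, 17 of complex IV, 16 of complex V, 7 NDUFAF assembly factors and 8 other matched symbols. NDUFA4 and NDUFA4L2 were placed with complex IV, since NDUFA4 is now known as a subunit of that complex. Treated cells received TGH, a resveratrol trimer from plants, at 2.5 µM for 24 h (n = 3), and control cells received dimethyl sulfoxide (DMSO) in its place (n = 3). All 6 libraries came from this 1 cell line, grown in medium with fetal bovine serum, with total RNA depleted of ribosomal RNA. By its title the study asked how advanced prostate cancer cells fare when a compound deprives them of glucose.

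The respiratory chain passes electrons from NADH (complex I) and succinate (complex II) through ubiquinone to complex III, then through cytochrome c to complex IV and oxygen. Complexes I, III and IV pump protons across the inner mitochondrial membrane, and complex V, the ATP synthase, uses the returning protons to make ATP. Most subunits are encoded in the nucleus, while a few, at the core of complexes I, III, IV and V, are encoded by mitochondrial DNA. The table has 0 rows for the mitochondrially encoded subunits, so what follows covers the nuclear share alone. Cancer cells can draw ATP from both glycolysis and this chain.

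Values are TPM, a unit of transcript abundance per transcript length and library total, so levels of different genes can be compared. Differences are TGH minus DMSO on the deposited log2(TPM + 1) scale, where low genes appear to change less than they do. A gene is called when its limma p, adjusted by Benjamini-Hochberg over the 12018 genes averaging 1 TPM or more, is under 0.05. The labels do not say that replicates came from separate cultures, so p-values measure only the spread between these libraries. Epithelial keratins were high, with KRT8 at 423 to 426 TPM in TGH libraries and 594 to 620.0 TPM in DMSO libraries. The fibroblast, immune, endothelial and erythroid markers COL1A2, PDGFRB, PTPRC, CD3E, CD14, PECAM1, VWF and HBB were at most 0.299 TPM, while COL1A1 was at 2.54 to 2.90 TPM in TGH libraries and 3.24 to 3.52 TPM in DMSO libraries. The part of these marker differences in the results was not tested. DMSO replicates 1 and 2 stood apart in low genes, with 3074 and 3185 symbols listed at exactly 0, against 1342 to 1530 in the other 4 libraries. None of the 89 respiratory chain members with a mean of at least 1 TPM was listed at 0 in any library.

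In cells given TGH the chain did not shift as a block. Of the 89 members tested, 34 rose, 14 fell and 41 were not called. Over all genes tested 55.2% were called, 28.9% higher and 26.3% lower, and the members' shares were 53.9% called, 38.2% higher and 15.7% lower. The median difference of the members was 0.04, against 0.02 for all genes tested. Most changes were small: 39 members differed by under 0.1 and 9 by over 0.25. The groups did not overlap for 38 members that were higher and 16 that were lower, while over all genes tested 64.4% did not overlap, 33.6% higher and 30.8% lower. With DMSO replicate 3 as the only control, where the spread comes from the TGH libraries, 30 members were called higher and 13 lower, of which 28 and 10 were among those called with all controls. Without TGH replicate 2 the number called lower was 9. In bulk RNA, fewer cells of a type and less RNA per cell cannot be told apart.

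The 10 members under the limit of 1 TPM were UQCRHL, COX6B2, COX7A1, COX8C, NDUFA4L2, ATP5L2, the pseudogenes ATP5EP2, NDUFAF4P1 and UQCRBP1, and the readthrough transcript ATP5J2-PTCD1. Their highest mean was 0.705 TPM, and they were not tested. Among the other matched symbols that were tested, ATP5S, also called factor B and no subunit of the enzyme, had 8.59, 8.29 and 9.04 TPM in TGH libraries, against 6.49, 7.65 and 5.72 TPM in DMSO libraries. It rose by 0.35 (SE 0.092, adjusted p = 0.0175), a call lost without TGH replicate 1 or TGH replicate 3. ATP5SL, the antisense RNA NDUFB2-AS1 and the readthrough NDUFC2-KCTD14 were not called.

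Complex I, the NADH dehydrogenase, had 15 subunits called higher, 5 called lower and 17 not called, with a median difference of 0.04. It had 54.1% called, 40.5% higher and 13.5% lower, against 55.2%, 28.9% and 26.3% of all genes tested. Its summed level was 5919.7, 5859.8 and 5871 TPM in TGH libraries, against 5541, 5531 and 5592 TPM in DMSO libraries, 5.92% more. Its mean share of all listed TPM was 1.144% with TGH and 1.096% with DMSO. Core subunits, which carry the flavin and the iron-sulfur clusters, were called in both directions: NDUFV1, NDUFS1, NDUFS8 and NDUFS7 rose, and NDUFS3 and NDUFV2 fell. Accessory subunits, which surround and stabilise the core, were also called in both directions. The count of complex I members called lower was 3 with DMSO replicate 3 as the only control, 3 without DMSO replicate 2, 3 without TGH replicate 1, 1 without TGH replicate 2 and 2 without TGH replicate 3.

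NDUFV1, which binds the flavin and takes electrons from NADH, had 137, 142 and 142 TPM in TGH libraries, against 116, 119 and 116 TPM in DMSO libraries. It rose by 0.26 (SE 0.024, adjusted p = 0.000185). Its partner in the NADH-oxidising module, the iron-sulfur subunit NDUFV2, had 256, 247 and 242 TPM with TGH, against 273, 271 and 275 TPM with DMSO. NDUFV2 fell by 0.14 (SE 0.025, adjusted p = 0.00368), so these neighbours in the complex changed in opposite directions. NDUFS1, the largest core subunit, had 42.7, 40.8 and 41.2 TPM with TGH, against 35.7, 34.8 and 35.3 TPM with DMSO. It rose by 0.23 (SE 0.028, adjusted p = 0.000624). NDUFS3, a core subunit of the module that hands electrons to ubiquinone, had 83.1, 82.7 and 79.5 TPM with TGH, against 85.4, 95.9 and 90.7 TPM with DMSO. It fell by 0.15 (adjusted p = 0.0284), and it was no longer called when DMSO replicate 2, DMSO replicate 3 or any 1 of the TGH replicates was left out. The iron-sulfur subunits NDUFS8 and NDUFS7, on the path to ubiquinone, rose by 0.21 (adjusted p = 0.00271) and 0.16 (adjusted p = 0.0138), the second call being lost without TGH replicate 1 and with DMSO replicate 3 as the only control.

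Among accessory subunits the largest difference was that of NDUFS4, which helps to fix the NADH-oxidising module to the arm and is mutated in Leigh syndrome. NDUFS4 had 73.7, 68.8 and 74.9 TPM in TGH libraries, against 55.2, 47.5 and 53.6 TPM in DMSO libraries. It rose by 0.47 (SE 0.062, adjusted p = 0.00086), and the groups stood well apart. NDUFA7, an accessory subunit of the peripheral arm, had 143, 151 and 144 TPM with TGH, against 114, 109.7 and 116 TPM with DMSO, a rise of 0.37 (SE 0.032, adjusted p = 0.000154). The exons of NDUFA7 overlap by 89 bases those of RPS28 on the opposite strand, which was far more abundant and also rose, at a mean of 2963 TPM with TGH and 2664 TPM with DMSO. The library kit keeps the strand, but whether the counting used it is not given in the sources used here, and the part of RPS28 reads in NDUFA7 was not tested. NDUFA3, NDUFB2, NDUFA1, NDUFA13, NDUFB5, NDUFV3, NDUFA11 and NDUFB8, accessory subunits chosen here after their values were seen, also rose, by 0.13 to 0.23. The call of NDUFV3 was lost after median scaling and without DMSO replicate 3 or any 1 of the TGH replicates, and that of NDUFB8 after median scaling and without TGH replicate 1 or TGH replicate 3.

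On the lower side, NDUFA6, an accessory subunit of the LYR motif family, had 60.2, 56.2 and 57.3 TPM with TGH, against 66.8, 62.7 and 63.5 TPM with DMSO. It fell by 0.15 (SE 0.037, adjusted p = 0.0137). NDUFC2, of the membrane arm, had 50.3, 47.6 and 50.3 TPM with TGH, against 56.2, 52.9 and 52.8 TPM with DMSO, and fell by 0.13 (adjusted p = 0.0252). The groups stood close together for both genes, and each call was lost when TGH replicate 2 was left out. NDUFC2 shares 431 exon bases with the readthrough transcript NDUFC2-KCTD14, so its reads may be divided between both. NDUFB9, the most abundant complex I member, had 535, 526 and 529.6 TPM with TGH, against 498, 523 and 508 TPM with DMSO, and its difference of 0.057 was not called (adjusted p = 0.0568).

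**Figure D1:**
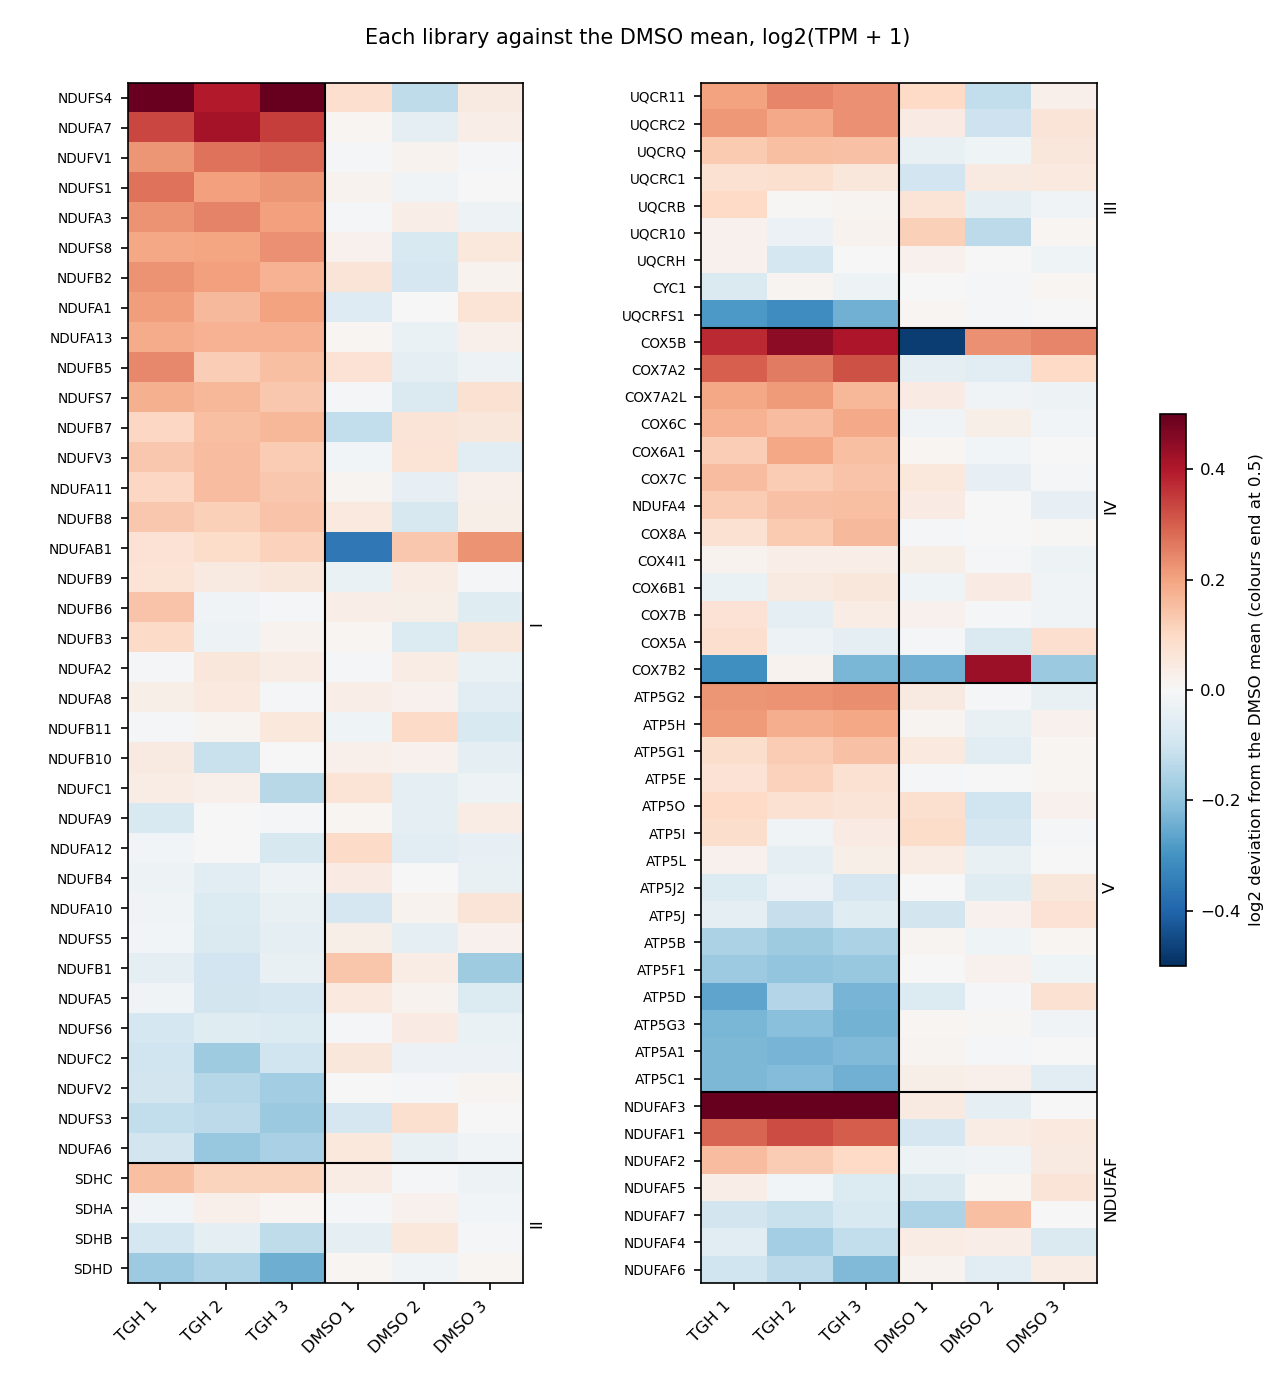
Deviation of each library from the DMSO mean, in log2(TPM + 1), for tested members, with the 3 TGH libraries left of the 3 DMSO libraries and members sorted within each complex by difference. Colours end at 0.5, and single cells that depart from their own group are COX5B and NDUFAB1 in DMSO replicate 1 and COX7B2 in DMSO replicate 2.

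NDUFAB1, the mitochondrial acyl carrier protein, was chosen after its values were seen. It had 164, 166 and 169 TPM in TGH libraries, against 122, 171 and 182 TPM in DMSO libraries. Its difference of 0.094 was not called (adjusted p = 0.596). Without DMSO replicate 1 the difference was -0.084 and was not called either (adjusted p = 0.067), so the sign turned with that library.

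Complex II, succinate dehydrogenase, is the enzyme shared with the citric acid cycle and is encoded wholly in the nucleus. Of its 4 subunits 1 was called higher, 1 lower and 2 were not called, with a median difference of -0.04. Over all genes tested 28.9% were called higher and 26.3% lower. After scaling each library to an equal median, 1 was called higher and 2 lower, and likewise without DMSO replicate 1. The summed level was 354, 359.6 and 346 TPM in TGH libraries, against 367, 374 and 368 TPM in DMSO libraries, 4.50% less and with no overlap. Its mean share of all listed TPM was 0.0686% with TGH and 0.0729% with DMSO. SDHA, the flavoprotein that oxidises succinate, had 79.4, 81.5 and 80.6 TPM with TGH, against 79.7, 81.3 and 79.2 TPM with DMSO, and its difference of 0.0074 was not called (adjusted p = 0.798). SDHB, the iron-sulfur subunit, had 118, 122 and 115 TPM with TGH, against 122, 131 and 125 TPM with DMSO, a difference of -0.088 that was not called (adjusted p = 0.0621).

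The membrane anchors of complex II, which bind ubiquinone and heme together, changed in opposite directions. SDHC had 57, 55.4 and 55.4 TPM in TGH libraries, against 52.6, 50.8 and 50.3 TPM in DMSO libraries, and rose by 0.12 (SE 0.028, adjusted p = 0.00883). SDHD had 98.9, 101 and 94.7 TPM with TGH, against 113, 111 and 113 TPM with DMSO, and fell by 0.19 (SE 0.029, adjusted p = 0.00152). Neither pair of groups overlapped, and both calls held under all 17 alternatives.

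Complex III, the cytochrome bc1 complex, had 3 subunits called higher, 1 lower and 5 not called, with a median difference of 0.04. It had 44.4% called, 33.3% higher and 11.1% lower, against 55.2%, 28.9% and 26.3% of all genes tested. Its summed level was 1462, 1437 and 1461 TPM with TGH, against 1454, 1430.2 and 1452 TPM with DMSO, and these groups overlapped. As a share of all listed TPM it was 0.282% to 0.283% with TGH and 0.285% in each DMSO library, lower and with no overlap. The fall concerned an electron carrier. UQCRFS1, the Rieske iron-sulfur protein inserted last into the complex, had 77.1, 75.8 and 79.7 TPM in TGH libraries, against 95, 93.6 and 94.4 TPM in DMSO libraries. It fell by 0.28 (SE 0.026, adjusted p = 0.000177), the largest fall of any member. The other nuclear-encoded carrier, cytochrome c1 (CYC1), had 307, 326 and 317 TPM with TGH, against 323, 320.4 and 325 TPM with DMSO. Its difference of -0.028 was not called (adjusted p = 0.374).

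Of the structural members of complex III, the core protein UQCRC2 had 66.8, 65.5 and 67.3 TPM with TGH, against 59.0, 53.2 and 59.9 TPM with DMSO, and rose by 0.21 (SE 0.047, adjusted p = 0.00827). The small subunit UQCR11 had 82.0, 84.5 and 83.6 TPM with TGH, against 76.5, 65.3 and 72.5 TPM with DMSO, and rose by 0.22 (SE 0.056, adjusted p = 0.0135). UQCRQ, another small subunit, had 48.4, 49.0 and 48.9 TPM with TGH, against 42.9, 43.4 and 45.9 TPM with DMSO, and rose by 0.14 (SE 0.032, adjusted p = 0.00852). The rule that named these 3 asks for groups that do not overlap, so their separation adds no support. It held on the higher side for 33.6% of all genes tested. The hinge protein UQCRH was the most abundant member of the complex, with 533, 494 and 524 TPM with TGH, against 532, 525 and 517 TPM with DMSO, and was not called (adjusted p = 0.564). UQCRHL, its near-identical intronless copy, was at 0.626, 0.516 and 0.515 TPM with TGH, against 0, 0 and 0.258 TPM with DMSO, and reads of the pair may not be separable.

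Complex IV, cytochrome c oxidase, was the complex with calls in 1 direction alone: 7 of 13 tested members were called higher, 0 lower and 6 were not called. That is 53.8% called, all of them higher. Over all genes tested 55.2% were called, 28.9% higher and 26.3% lower. In the same limma fit 0 members had an unadjusted p under 0.05 on the lower side. Its median difference was 0.14, 12 members were above 0 and 1 below, and the count called lower was 0 under all 17 alternatives. The summed level was 5492, 5514 and 5559 TPM in TGH libraries, against 4986, 5026 and 5059 TPM in DMSO libraries, 9.91% more. Its mean share of all listed TPM was 1.074% with TGH and 0.991% with DMSO. The catalytic subunits of this enzyme are mitochondrially encoded, so these genes are the regulatory and structural shell. The 13 tested members had a median transcript length of 716 nucleotides (GENCODE release 29). Of all tested genes under 750 nucleotides, 40.9% were called higher and 13.1% lower. Whether complex IV differed from the other complexes was not tested, nor was the part of length in its calls.

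COX7A2, the form of subunit 7A found in most tissues, had 180.5, 175 and 183 TPM in TGH libraries, against 142, 141 and 157 TPM in DMSO libraries. It rose by 0.29 (SE 0.044, adjusted p = 0.00162). COX7A2L, a related protein that joins complexes III and IV into supercomplexes, had 105, 106 and 103 TPM with TGH, against 94.1, 90.1 and 89.8 TPM with DMSO, and rose by 0.19 (SE 0.027, adjusted p = 0.00119). The muscle and heart form COX7A1 was at most 0.234 TPM in any library. COX6A1, the non-muscle form of subunit 6A, had 742, 777 and 756 TPM with TGH, against 685, 674 and 682 TPM with DMSO, a rise of 0.16 (SE 0.020, adjusted p = 0.000802). COX6C had 303, 299 and 306 TPM with TGH, against 265, 274 and 266 TPM with DMSO, a rise of 0.17 (SE 0.020, adjusted p = 0.00053). All 4 rises meet the naming rule, which asks for groups without overlap, so the separation of their libraries adds no support. Over all genes tested 33.6% were higher with no overlap.

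The most abundant member of the whole chain was COX7C, a small transmembrane subunit, with 1561, 1529.9 and 1549 TPM in TGH libraries, against 1454, 1362 and 1391 TPM in DMSO libraries. It rose by 0.14 (SE 0.025, adjusted p = 0.00318), but by 0.035 after quantile normalization, where it was not called. COX8A had 869.9, 902 and 923 TPM with TGH, against 821, 825 and 827 TPM with DMSO, and rose by 0.12 (SE 0.023, adjusted p = 0.00382). It was not called after quantile normalization or with DMSO replicate 3 as the only control. NDUFA4 had 112, 114 and 114 TPM with TGH, against 106, 103 and 99.99 TPM with DMSO, and rose by 0.14 (SE 0.026, adjusted p = 0.00381). Its paralog NDUFA4L2, known from other cells as a hypoxia-induced gene, was at most 1.12 TPM in any library.

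COX5B, the zinc-binding subunit, had the largest difference of complex IV and was not called; it is named after its values were seen. It had 406, 428 and 416 TPM in TGH libraries, against 226, 368 and 372 TPM in DMSO libraries, a difference of 0.41 (SE 0.19, adjusted p = 0.103). Without DMSO replicate 1 its difference was 0.17 and was called (adjusted p = 0.00254). COX4I1, which receives regulatory signals such as ATP binding, differed by 0.029, COX6B1 by 0.024, COX7B by 0.020 and COX5A by 0.0050, none of them called. Germline and muscle forms were scarce: COX6B2 reached 1.01 TPM and COX8C 0.288 TPM at most. COX7B2, a paralog of COX7B best known from testis, was the exception, with 15, 19 and 15.9 TPM with TGH, against 15.8, 25.6 and 16.4 TPM with DMSO, and was not called (adjusted p = 0.457).

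**Figure D2:**
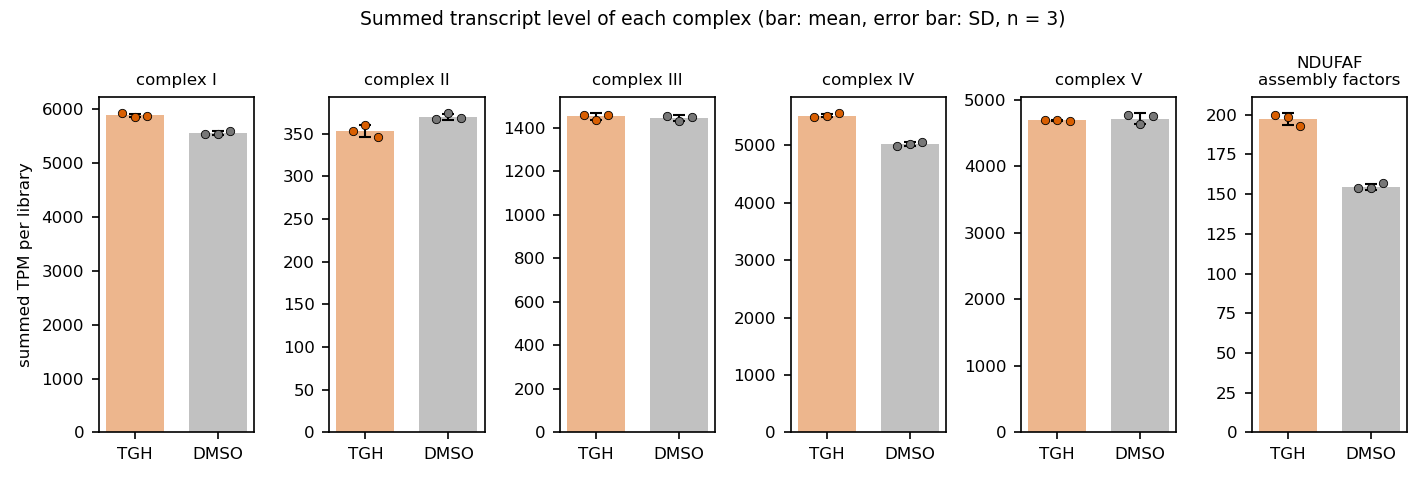
Summed TPM of each complex and of the NDUFAF factors in TGH and DMSO libraries, with bars for the mean, error bars for the SD and points for the 3 libraries. Complexes I and IV and the NDUFAF factors were higher in every TGH library, complex II was lower, and complexes III and V overlapped.

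Complex V, the ATP synthase, had calls in both directions. Of 15 tested members 4 rose, 6 fell and 5 were not called, with a median difference of -0.06, and after median scaling 3 were called higher and 7 lower. The summed level was 4698, 4697 and 4685 TPM in TGH libraries, against 4767, 4632 and 4766 TPM in DMSO libraries, with overlap. In the F1 head and central stalk, where ATP is made, 4 of 5 subunits fell and 1 rose. Of complex V members 66.7% were called, 26.7% higher and 40% lower, against 55.2%, 28.9% and 26.3% of all genes tested. Whether complex V or its parts differed from all genes was not tested. All 3 genes of the rotating c ring were called, 2 higher and 1 lower. In the peripheral stalk 1 rose, 1 fell and 2 were not called, and the 3 membrane subunits e, f and g (ATP5I, ATP5J2 and ATP5L) were not called.

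The catalytic head of the enzyme alternates ATP5A1 (alpha) and ATP5B (beta). ATP5A1 had 238, 237 and 239 TPM in TGH libraries, against 281, 276 and 278 TPM in DMSO libraries, and fell by 0.23 (SE 0.016, adjusted p = 6.93e-05). ATP5B, named after its values were seen, had 603, 594 and 603 TPM with TGH, against 679, 662 and 676 TPM with DMSO, and fell by 0.16 (SE 0.016, adjusted p = 0.000244). The central stalk subunit gamma, ATP5C1, which turns inside the head, had 132, 133 and 131 TPM with TGH, against 158, 157 and 149 TPM with DMSO. It fell by 0.23 (SE 0.027, adjusted p = 0.00055). Subunit delta, ATP5D, had 84.2, 91.4 and 86 TPM with TGH, against 96.5, 101 and 107 TPM with DMSO, and fell by 0.21 (SE 0.046, adjusted p = 0.00746). Against these, subunit epsilon, ATP5E, the most abundant member of the complex, had 1080.1, 1114 and 1085 TPM with TGH, against 1022, 1027 and 1036 TPM with DMSO. It rose by 0.088 (SE 0.016, adjusted p = 0.00372). The 3 TGH libraries were on 1 side of the 3 DMSO libraries for all 5 genes of the head and stalk. Such separation held for 64.4% of all genes tested.

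Subunit c of the ring is encoded by 3 genes, ATP5G1, ATP5G2 and ATP5G3, which differ in the targeting peptide and give the same mature protein. ATP5G2 had 155, 156 and 157 TPM in TGH libraries, against 137, 132 and 130.0 TPM in DMSO libraries, and rose by 0.22 (SE 0.025, adjusted p = 0.000431). ATP5G3 had 93.2, 94.3 and 92.5 TPM with TGH, against 110.0, 109.7 and 108 TPM with DMSO, and fell by 0.22 (SE 0.020, adjusted p = 0.00017). ATP5G1 had 259, 266 and 269.8 TPM with TGH, against 252, 234 and 245 TPM with DMSO, and rose by 0.12 (SE 0.032, adjusted p = 0.0163), a call lost after median scaling and without TGH replicate 2 or TGH replicate 3. The makeup of the subunit c transcripts therefore differed between the groups. ATP5G3 made up 18.2% ± 0.297 of them in TGH libraries and 22.5% ± 0.521 in DMSO libraries, and ATP5G2 30.3% ± 0.256 in TGH libraries and 27.4% ± 0.460 in DMSO libraries (SD, n = 3 each). Their summed level was 514 ± 6.28 TPM with TGH and 486 ± 11.9 TPM with DMSO (SD, n = 3 each).

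The peripheral stalk, which holds the head still while the ring turns, was also divided. ATP5H, subunit d, had 412, 402 and 406 TPM in TGH libraries, against 359, 346 and 360.4 TPM in DMSO libraries, and rose by 0.20 (SE 0.021, adjusted p = 0.000391). ATP5F1, subunit b and named after its values were seen, had 126, 125 and 126 TPM with TGH, against 144, 145 and 141 TPM with DMSO, and fell by 0.19 (SE 0.020, adjusted p = 0.000333). ATP5J and ATP5O, subunits F6 and OSCP, differed by -0.073 and 0.080 and were not called.

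**Figure D3:**
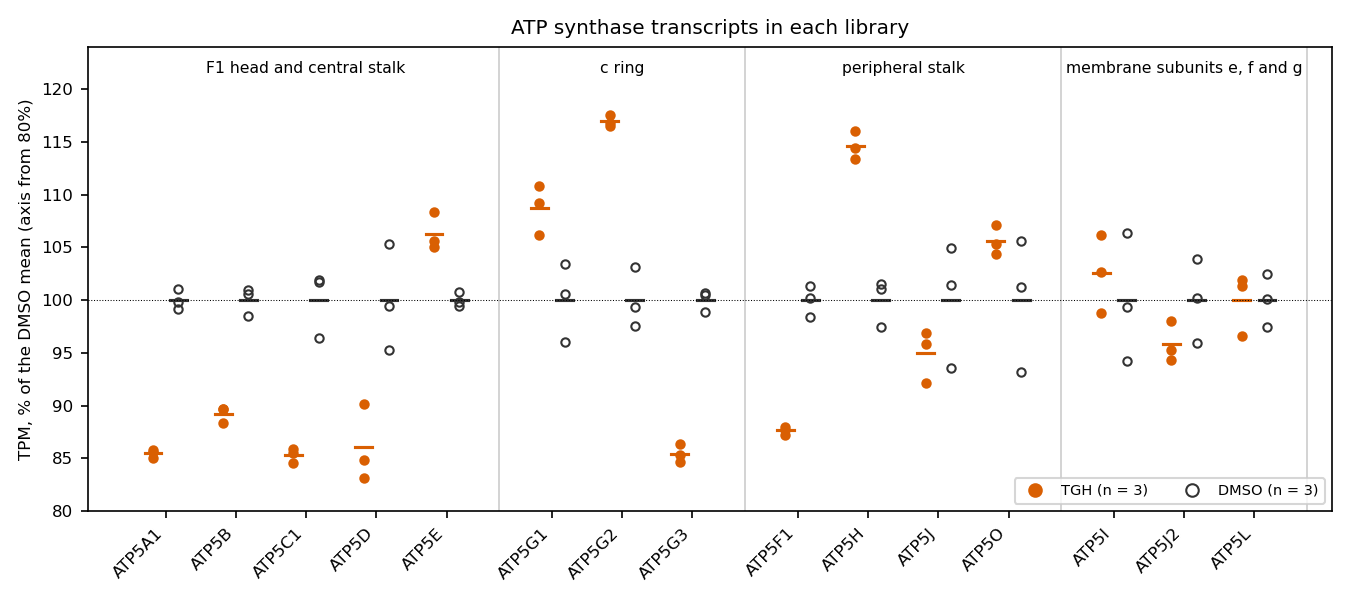
ATP synthase transcripts in each library as a percent of that gene's DMSO mean, with TGH libraries as filled points left of DMSO libraries as open points and short lines for the means; the axis starts at 80%. The head subunits ATP5A1, ATP5B, ATP5C1 and ATP5D sit below the DMSO points, and ATP5G2 and ATP5H sit above them.

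The NDUFAF proteins build complex I and leave it when it is complete. Of 7, 3 were called higher, 1 lower and 3 were not called, with a median difference of -0.02. After median scaling 3 were higher and 2 lower. Of these factors 57.1% were called, 42.9% higher and 14.3% lower, against 55.2%, 28.9% and 26.3% of all genes tested. Their summed level was 199.7, 199 and 193 TPM in TGH libraries, against 154, 154 and 157 TPM in DMSO libraries, 27.5% more. Their mean share of all listed TPM was 0.0384% with TGH and 0.0305% with DMSO. Most of the excess lay in 1 gene, NDUFAF3, at a mean of 92.5 TPM with TGH and 55.2 TPM with DMSO, while 4 of the 7 differences were below 0. NDUFAF3, which acts with NDUFAF4 on the ubiquinone module, was the most abundant of them and showed the largest difference of any member. NDUFAF3 had 93.0, 94.1 and 90.3 TPM with TGH, against 57, 53.5 and 55.2 TPM with DMSO, a rise of 0.73 or 1.66-fold (SE 0.031, adjusted p = 9.71e-06), and it was called in all 17 alternatives. Its exons overlap by 527 bases those of DALRD3 on the opposite strand, at a mean of 17.9 TPM with TGH and 13.5 TPM with DMSO, a rise of 0.38. The part of DALRD3 reads in NDUFAF3 was not tested.

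NDUFAF1, a chaperone of the membrane arm, had 18.7, 19.2 and 18.8 TPM with TGH, against 14.2, 15.5 and 15.6 TPM with DMSO, and rose by 0.31 (SE 0.043, adjusted p = 0.00119). NDUFAF2, a factor of the late steps, had 51.7, 50.7 and 49.7 TPM with TGH, against 45.6, 45.7 and 47.8 TPM with DMSO, and rose by 0.13 (SE 0.030, adjusted p = 0.0111). NDUFAF6 had 11.9, 11.6 and 10.8 TPM with TGH, against 12.9, 12.3 and 13.1 TPM with DMSO, and fell by 0.15 (adjusted p = 0.0311), a call lost without DMSO replicate 1, DMSO replicate 3, TGH replicate 2 or TGH replicate 3. NDUFAF4, the partner of NDUFAF3, had 8.99, 8.21 and 8.5 TPM with TGH, against 9.64, 9.59 and 8.87 TPM with DMSO, and was not called (adjusted p = 0.0899). The largest rise among these factors was thus not shared by its binding partner. NDUFAF5 and NDUFAF7, which modify arginines of core subunits, were not called.

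Genes that build or feed the chain but are not matched by the symbol rule gave 18 called higher, 28 called lower and 50 not called among 96 tested over 9 lists. That is 47.9% called, 18.75% higher and 29.2% lower. Over all genes tested the shares were 55.2%, 28.9% and 26.3%, which also stand beside the counts of each list below. Of complex II assembly factors 1 of 4 rose, 1 fell and 2 were not called. The rise was that of C6orf57, now SDHAF4, which helps the flavoprotein SDHA to join SDHB. C6orf57 had 16.3, 14.8 and 16.3 TPM in TGH libraries, against 8.16, 8.45 and 6.80 TPM in DMSO libraries, and rose by 0.94 (SE 0.081, adjusted p = 0.000138), a larger difference than that of any member. SDHAF1, which serves the iron-sulfur clusters of SDHB, fell by 0.16 (adjusted p = 0.0269), a call lost without DMSO replicate 1, TGH replicate 2 or TGH replicate 3 and with DMSO replicate 3 as the only control. SDHAF2, which attaches the flavin to SDHA, was not called. Of complex III factors 3 of 6 rose and 2 fell. Of the factors that serve cytochrome b, MNF1, now UQCC2, rose by 0.38 (adjusted p = 0.000132), UQCC rose by 0.21 (adjusted p = 0.00833) and C11orf83, now UQCC3, fell by 0.15 (adjusted p = 0.0198). TTC19, which clears fragments of the Rieske protein, rose by 0.21 (adjusted p = 0.00928).

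Of 25 complex IV assembly factors 4 rose, 7 fell and 14 were not called. COX17, the copper chaperone that feeds the enzyme, had 370.3, 359 and 368 TPM in TGH libraries, against 276, 270.0 and 293 TPM in DMSO libraries, a rise of 0.39 (SE 0.033, adjusted p = 0.000127). COX19, also of the copper pathway, fell by 0.26 (adjusted p = 0.00253), and HIGD1A, a small protein that binds the enzyme, fell by 0.18 (adjusted p = 0.00202). For complex V, 1 of 6 listed genes fell and 0 rose in the limma fit, with 1 higher at an unadjusted p under 0.05. Besides assembly factors this list holds the inhibitor ATPIF1 and the subunits USMG5 and C14orf2, now ATP5MK and ATP5MJ. The symbol rule misses these subunits, so they are not among the complex V members, and neither was called. The fall was that of ATPAF1, the chaperone that binds the beta subunit, at 26.4, 24.3 and 23.5 TPM with TGH, against 33.5, 30.2 and 31.4 TPM with DMSO, or -0.34 (SE 0.055, adjusted p = 0.00212). Its client ATP5B fell too. Other complex I factors numbered 9, with 3 higher and 2 lower. ACAD9 and TMEM126B, which work with NDUFAF1 on the membrane arm, rose by 0.34 (adjusted p = 0.0108) and 0.18 (adjusted p = 0.00921). FOXRED1 fell by 0.14 (adjusted p = 0.00622). The 4 not called were ECSIT at -0.058, TIMMDC1 at 0.010, TMEM186 at 0.12 and C17orf89 at 0.11. Not all factors of the membrane arm rose, therefore.

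Among cytochrome c and the enzymes of ubiquinone synthesis 3 of 14 rose, 4 fell and 7 were not called. PDSS1, which makes the ubiquinone side chain, fell by 0.41 (adjusted p = 0.000188). The ring-modifying enzymes were called in both directions. COQ5 and COQ6 rose by 0.38 (adjusted p = 0.000423) and 0.33 (adjusted p = 0.000391). COQ7, chosen after its values were seen, fell by 0.42 (adjusted p = 0.000702). Of the other donors of electrons to ubiquinone 3 of 8 rose and 1 fell. GPD2, the mitochondrial glycerol phosphate dehydrogenase, fell by 0.37 (adjusted p = 0.000729), AIFM2, a ubiquinone reductase outside mitochondria, rose by 0.32 (adjusted p = 0.000764) and ETFB, of the electron transfer flavoprotein, rose by 0.24 (adjusted p = 0.00159).

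**Figure D4:**
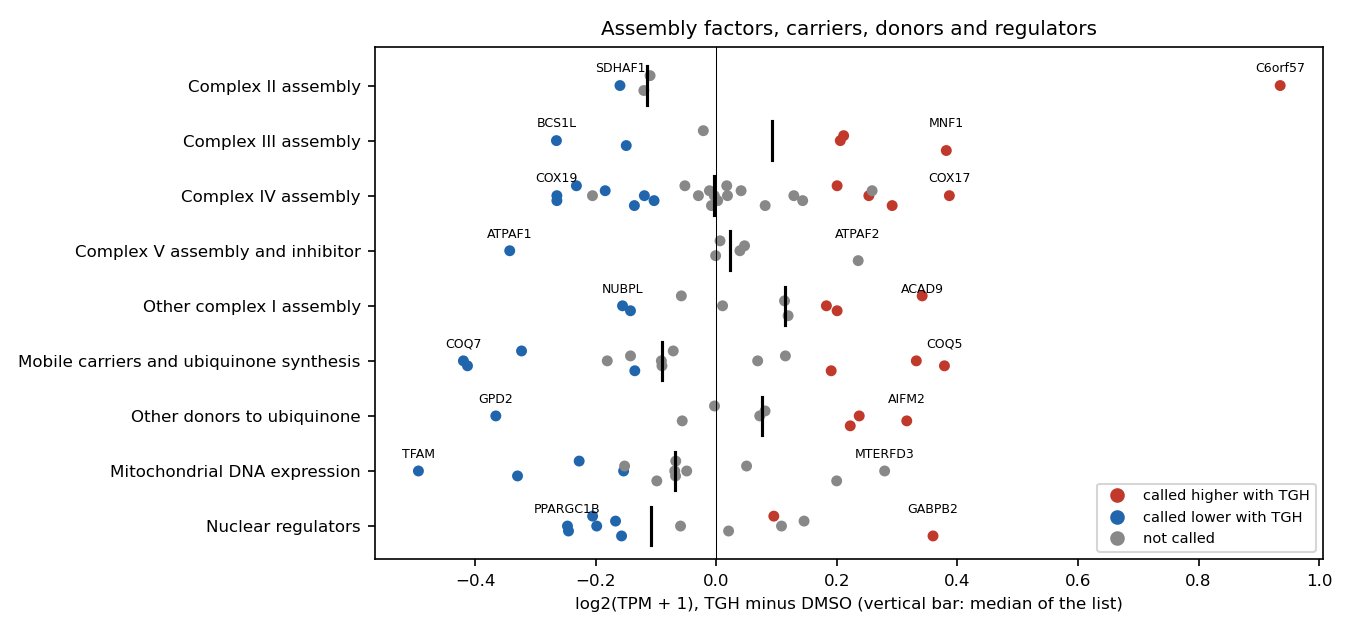
Differences of the tested genes in 9 lists of assembly factors, carriers, donors and regulators, TGH minus DMSO on the log2(TPM + 1) scale, with points coloured by call and a vertical bar for each list's median. C6orf57 stands farthest to the right at 0.94 and TFAM farthest to the left at -0.49.

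Of the 13 genes that copy and transcribe mitochondrial DNA, 4 fell, 0 rose and 9 were not called. That is 30.8% called, all of them lower, against 55.2% called and 26.3% called lower over all genes tested. At an unadjusted p under 0.05 in the same limma fit 0 were higher and 5 lower. TFAM, which packages mitochondrial DNA and starts its transcription, had 21.6, 20.4 and 20.4 TPM in TGH libraries, against 30.7, 28.9 and 29.6 TPM in DMSO libraries, and fell by 0.49 (SE 0.037, adjusted p = 7.99e-05). TFB2M, the other initiation factor, had 31.3, 32.7 and 32.0 TPM with TGH, against 40.4, 40.4 and 40.6 TPM with DMSO, and fell by 0.33 (SE 0.026, adjusted p = 0.000103). TOP1MT, the mitochondrial topoisomerase, fell by 0.15 (adjusted p = 0.00684). The transcripts that these factors serve have no values here, so the mitochondrial share of the chain was not analysed here.

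Of 12 tested nuclear regulators of respiratory genes 6 fell, 2 rose and 4 were not called. NRF1, nuclear respiratory factor 1, had 5.35, 5.40 and 5.40 TPM in TGH libraries, against 6.95, 6.59 and 6.18 TPM in DMSO libraries, and fell by 0.25 (SE 0.049, adjusted p = 0.0054). GABPA, the ETS family factor also called NRF-2 alpha, fell by 0.17 (adjusted p = 0.00588), and SP1 fell by 0.21 (adjusted p = 0.00234). The rises, named after their values were seen, were GABPB2 by 0.36 (adjusted p = 0.0121) and NFE2L1 by 0.095 (adjusted p = 0.0262). GABPB2 is a beta partner of GABPA, and the other beta partner, GABPB1, differed by 0.15 and was not called. The factor that GABPA forms with them thus did not fall in all its parts. The coactivator PPARGC1A was at most 0.00498 TPM and was not tested. Promoters were searched for words of NRF1, the ETS family and YY1 and for the CRE word, with none for SP1. YY1, named after its values were seen, fell by 0.16 (adjusted p = 0.0132). CREB1, a factor of the CRE word, was not called (adjusted p = 0.750). The part of these words in the differences was not tested. The window ran from 250 bases before to 50 bases after each RefSeq start (GRCh38.p14), on both strands, and 71 of the 85 tested subunits and NDUFAF factors had a promoter. The NRF1 palindrome, GCGCA followed at once by its reverse complement TGCGC, was in 7.04% of members' promoters (5 of 71), in 2.76% of those of all tested genes and in 1.52% of all promoters. Its 5 genes were NDUFB4, NDUFA8, NDUFAF5, SDHD and ATP5C1, of which SDHD and ATP5C1 fell and the others were not called. The ETS word CCGGAAG was in 29.6% of members' promoters, 23.5% of those of tested genes and 12.2% of all promoters. The YY1 word AAGATGGC was in 16.9%, 6.89% and 3.52% of these sets, and the CRE word TGACGTCA in 7.04%, 3.91% and 2.25%.

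Shown here are the 250 bases before the start of 3 members, from RefSeq on GRCh38.p14, 5′ to 3′ on the plus strand, which is the strand of each gene. Capitals mark the NRF1 palindrome or the ETS word, the ETS word being read from the other strand as CTTCCGG. SDHD and ATP5C1 are the called members with the NRF1 word, and COX6A1, which rose, has the ETS word alone. The windows are chr11:112086623-112086872 for SDHD, chr10:7787927-7788176 for ATP5C1 and chr12:120437863-120438112 for COX6A1.
SDHD: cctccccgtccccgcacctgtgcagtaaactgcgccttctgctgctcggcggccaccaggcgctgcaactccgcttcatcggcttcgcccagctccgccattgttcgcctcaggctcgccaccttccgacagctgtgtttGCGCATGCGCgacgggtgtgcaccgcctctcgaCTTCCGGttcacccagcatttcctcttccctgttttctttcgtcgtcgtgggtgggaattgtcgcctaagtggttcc
ATP5C1: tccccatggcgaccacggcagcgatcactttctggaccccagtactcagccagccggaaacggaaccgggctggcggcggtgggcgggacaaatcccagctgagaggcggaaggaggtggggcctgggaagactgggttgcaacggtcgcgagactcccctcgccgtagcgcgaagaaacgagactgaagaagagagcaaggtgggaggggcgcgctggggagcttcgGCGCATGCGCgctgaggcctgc
COX6A1: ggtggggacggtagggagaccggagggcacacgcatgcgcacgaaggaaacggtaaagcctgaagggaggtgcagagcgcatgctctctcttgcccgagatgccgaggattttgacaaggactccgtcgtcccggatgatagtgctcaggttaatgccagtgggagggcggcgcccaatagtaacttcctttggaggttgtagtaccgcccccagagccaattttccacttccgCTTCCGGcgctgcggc
In SDHD the NRF1 word begins 110 bases before the start and the ETS word 77 bases before it. The NRF1 word of ATP5C1 begins 22 bases before the start, and the ETS word of COX6A1 begins 16 bases before it. A match in these letters is a description and no measure of binding. Among members called higher 8 of 29 had the ETS word and 0 of 29 the NRF1 word. For members called lower these were 3 of 9 and 2 of 9, and for members not called 10 of 33 and 3 of 33. In the same order the YY1 word was in 5 of 29, 2 of 9 and 5 of 33. The CRE word was in 2 of 29, 0 of 9 and 3 of 33. Whether these shares differ was not tested.

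Members of the chain are short genes, and differences moved with transcript length over all genes. The median principal transcript was 958 nucleotides for the 85 tested subunits and NDUFAF factors and 2976 for all tested genes with a length, in GENCODE release 29. For all tested genes the median difference was 0.11 under 750 nucleotides, 0.05 from 750 to 1500, 0.0043 from 1500 to 3000 and -0.0045 from 3000 on. Those called higher were 40.9%, 34.8%, 28.1% and 27.1% of these bins, and those called lower 13.1%, 22.0%, 28.3% and 28.7%. For the members the medians in the same bins were 0.05, 0.03, 0.04 and -0.02, over 28, 31, 16 and 10 genes, and 11, 12, 7 and 3 were called higher and 1, 7, 3 and 3 lower. The part of length in the members' differences was not tested.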

How the data were processed

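RNA sequencing of 6 PC-3 libraries, 3 with TGH and 3 with DMSO, was analysed from the table deposited by the authors, which holds log2(TPM + 1) values for 18780 gene symbols. Per the submitters' processing notes reads were placed on hg19; which aligner, quantifier and annotation made the values is not given in the sources used here. TPM keeps no read total, so depth is unknown and no counting interval is given. The offset of 1 TPM was read from the values.

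The 12018 genes averaging 1 TPM or more were fitted with limma 3.58.1 in R 4.3.3 (moderated variances with a trend, two-sided, Benjamini-Hochberg over all genes kept, call at an adjusted p under 0.05), a step tested on simulated data. TPM is 2 to the power of the deposited value, minus 1. The members and lists were chosen with earlier results of these data known. Genes named are, in each class, up to 4 called members in each direction with the largest differences and no overlap of groups, the most abundant member, all of complex II, fixed isoform pairs and up to 3 genes of each other list by p; any other gene named was chosen after its values were seen. Alternatives were pseudocounts of 0.1 and 5 TPM, no filter or a mean of 5 TPM, median and quantile scaling, untrended or robust variances, a replicate block, each library left out, DMSO replicate 3 as the only control, and zeros taken as missing where another library of the group had 10 TPM. Symbols, promoters (GRCh38.p14) and lengths (GENCODE release 29) were matched by symbol, older symbols through RefSeq (99 of 99 members). Figures used matplotlib 3.10.9. The values of some genes under these rules are counted in the totals and not otherwise reported here.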

Additional observations from a re-analysis of the deposited data

How the results depend on the processing

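Of the 48 called members, 32 were called under all 17 alternatives, 16 lost the call under at least 1, and 0 reversed. The number of complex I members called lower, 5, was 3 with DMSO replicate 3 as the only control, 3 without a filter and 3 after quantile normalization, and 1 to 5 when a library was left out. Complex II members called lower, 1, were 2 after median scaling and with the replicate block, and 1 to 2 with a library left out. NDUFAF factors called lower, 1, were 0 with DMSO replicate 3 as the only control and 0 with the replicate block, 2 after median scaling and 2 after quantile normalization, and 0 to 1 with a library left out. All members called lower, 14, were 9 to 15 with a library left out. With DMSO replicate 3 as the only control UQCRQ, NDUFAF2, ATP5E, NDUFA6, NDUFC2, TTC19, FOXRED1 and TOP1MT were not called. The cause of these changes was not tested. Differences near 0 changed sign without a call. UQCRH was 4.9e-06 with DMSO replicate 3 as the only control, 0.028 after quantile normalization and -0.044 to 0.010 with a library left out. SDHA was -0.025 after median scaling and -0.0016 to 0.018 with a library left out. Median scaling lowers every difference by the same amount, so the signs it turned say nothing of single genes; it put COX4I1 at -0.0037, COX6B1 at -0.0087 and COX7B at -0.013. COX4I1 was -0.00048 after quantile normalization, and COX7B was -0.0070 to 0.055 with a library left out. COX7B2 was 0.014 with DMSO replicate 3 as the only control and -0.29 to 0.042 with a library left out. NDUFAB1 was -0.084 (without DMSO replicate 1) to 0.21 with a library left out, never called, and -0.13 with DMSO replicate 3 as the only control. In that last fit the lone control has no spread of its own and borrows that of the TGH group, so its calls are given as values only. The median difference of all genes tested was 0.018 as deposited, -0.015 after median scaling and -0.026 after quantile normalization.

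Whether replicate numbers pair the libraries is not known. Deviations of same-numbered libraries from their group means correlated at 0.0088, 0.054 and 0.23, against -0.16 to 0.096 for unlike numbers. Not every library correlated best with its own number. Within a group the deviations cancel out, so these correlations are tied together and cannot exclude pairing. With the replicate block 3273 genes were called higher and 2958 lower, against 3479 and 3156 without it, and 34 members higher and 14 lower. Depth is unknown for TPM, so the precision of low members such as UQCRHL or NDUFA4L2 cannot be stated. A single control library decided the values of COX5B and NDUFAB1.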
